A study of Mus musculus with 4 samples.

Results

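Chemokines and their receptors were examined in bulk muscle from Wild Type mice, strain mixed 129S4/SvJae and C57BL/6, with Affymetrix arrays. The members were the genes whose symbol begins with Ccl, Cxcl, Ccr, Cxcr, Cx3c or Xc and that encode a chemokine or a chemokine receptor, each read by the probe set of that gene alone with the highest mean. They numbered 50 of the 12393 genes measured, 32 ligands and 18 receptors. The data were 4 samples of 1 group, titled nm7, nm8, skm4 and skm5, with 1 array each. The labels describe normal muscle and give no treatment, age, sex or name of the muscle, nor say whether they came from separate animals. What the title prefixes nm and skm stand for is not given either, so the skm minus nm difference compares possible batches of samples and no treatment. RNA was extracted by a column kit for fibrous tissue or by TRIzol, and the labels do not say which was used for a sample. The series also concerns muscle tumours, which were not analysed here.

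Chemokines are small secreted proteins that guide the movement of leukocytes along gradients. They act through receptors coupled to G proteins on the leukocyte surface, and many are held on heparan sulphate of vessels and matrix. Some are made at a steady level and place lymphocytes in lymphoid tissue or hold progenitors in niches, and others are induced by injury, infection or interferon. In muscle, monocyte attraction through Ccr2 is known for its part in repair after injury.

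Values were log2 expression values by robust multi-array averaging (RMA), so a difference of 1 is a 2-fold difference. The muscle label was checked with muscle fibre markers such as Acta1, Ckm and Myh4, whose list of 8 had mean levels of 14.18 to 14.38 in the samples. The array medians lay between 7.26 and 7.3. Control probe sets differed between the prefixes: those for 18S ribosomal RNA read 12.98 to 13.54 in nm7 and nm8 and 10.87 to 12.19 in skm4 and skm5. The beta-actin control had a 3 prime minus 5 prime difference of 0.62 in nm7 and 0.56 in nm8 against -0.45 in skm4 and -0.44 in skm5. The part of these control differences in the results below was not tested.

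Most of the chemokine genes were dim. Of the 50 members, 45 had a mean below 7.86, the median level of all genes, and 5 lay at or above it: Cxcl12, Cxcl14, Ccl6, Ccl9 and Ccl11. In all 4 samples, 48 members read above the brightest TrpnX control, a bacterial transcript absent from mouse RNA, whose highest probe set read 3.79 to 4.05. The exceptions were Ccr3, a receptor of eosinophils, and Cxcl5, a neutrophil attractant. RMA compresses differences near the background, so folds of dim members can be understated.

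The chemokine genes varied more between the samples than the general run of genes. Of the 50 members, 40 had an SD over the 4 samples above the median SD of all genes, 0.191, where 50% of all genes do by construction. The median SD of the members was 0.258. Dim genes had larger SDs: below the median level, 3521 of 6196 genes lay above 0.191, and so did 36 of the 45 members there. The median SDs below that level were 0.212 for all genes and 0.254 for the members. A range over 1 was seen in 11 members (22.0%) against 5.98% of all genes, and in 20% of the members below the median level against 7.26% of all genes below it. The 11 were Ccl5, Cxcr5, Ccr7, Ccl6, Cxcr4, Ccl27a, Ccl11, Ccr9, Cxcl5, Ccl8 and Ccr6. The number of members with a range over 1 was 7 without nm7, 5 without skm4 and 9 without nm8 or without skm5. A range can only stay or shrink when a sample is left out, and the matching counts over all genes are not given. The sample skm4 held the lowest value of 18 members (36.0%), against 26.6% of all genes, and it was the lowest sample for 9 of the 18 receptors.

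Between the prefixes, no chemokine gene passed the test over all genes (limma, Benjamini-Hochberg adjusted p under 0.05), and 4 of 12393 genes (0.0323%) did, with 0.00807% lower and 0.0242% higher in skm. With an intensity trend in limma's variance prior, 4 of the 50 members passed, Ccl22, Ccr9, Cxcl9 and Cxcr5. By that fit 1110 of the 12393 genes passed, so the share of members was no larger than that of all genes. At an adjusted p under 0.10 there were 5 members, Cxcr5, Ccr9, Cxcl9, Ccl22 and Ccl12, all lower in skm. That is 10% of the members, where by that rule 4.69% of all genes were lower, 3.34% were higher and 8.03% were either. At an unadjusted p under 0.05 there were 13 members lower and 4 higher, which is 26.0% and 8.0% against 13.0% and 10.6% of all genes (34.0% against 23.5% in either direction). The prefixes did not overlap in 16 members that were lower in skm and 9 that were higher. Those shares, 32.0% and 18%, compare with 28.6% and 25.8% of all genes, and the share in either direction, 50%, with 54.4%, so the lack of overlap is near the background. The median difference of the members was -0.16 on the log2 scale against -0.003 for all genes. An exact permutation test on 2 against 2 samples cannot give a 2-sided p below 0.333, so none was used for single genes.

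Of the 5 members with the largest differences, 4 were receptors of lymphocytes (Cxcr5, Ccr7, Ccr9 and Cxcr4) and the other was the ligand Ccl5. Of the 10 measured, 8 had a negative skm minus nm difference, 6 were lower in skm without overlap and 2 were higher without overlap, Ccr4 and Ccr8, with a median of -0.52. Of all genes, 28.6% were lower without overlap and 25.8% higher. Of these calls, Ccr4 rests on nm8 and skm4 values alike to 2 decimals (4.65) and Ccr9 on 1 probe set. None passed limma's adjusted threshold of 0.05, and 5 lower and 1 higher had an unadjusted p under 0.05 (13.0% and 10.6% of all genes). In bulk tissue, fewer cells of a type and less RNA per cell cannot be told apart.

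Cxcr5, which brings B cells and follicular helper T cells into lymphoid follicles, read 6.56 and 5.88 in nm7 and nm8, against 4.91 and 4.71 in skm4 and skm5. Both skm samples were well below both nm samples, a difference of -1.41 ± 0.24 (SE, n = 2 per prefix) or 2.65-fold (limma, adjusted p = 0.063). Ccr7, which brings T cells and dendritic cells to lymph nodes, read 7.12, 7.4, 5.73 and 6.62 in the same order. Here skm4 was lowest and skm5 lay between it and the nm pair, a difference of -1.09 ± 0.30 (adjusted p = 0.12) that was -0.65 without skm4. Cxcr4, the receptor of Cxcl12 on many leukocytes and progenitors, read 7.92, 7.9, 6.59 and 7.33. The nm samples were alike and skm4 was again the lowest, a difference of -0.94 ± 0.25 (adjusted p = 0.11) that was -0.57 without skm4.

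Ccr9, a receptor of thymocytes and of T cells bound for the gut, read 5.82, 5.7, 4.65 and 4.71, a difference of -1.08 ± 0.12 (limma, adjusted p = 0.051). This was the lowest adjusted p of any member, and it rested on 1 of 3 probe sets. The other Ccr9 probe sets, nearly as bright at means of 5.20 and 5.12 against 5.22, differed by 0.06 ± 0.16 and -0.16 ± 0.16. The probe set with the difference is of the kind marked x, which can bind related transcripts, so the Ccr9 difference is uncertain.

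Smaller differences were seen in the other lymphocyte receptors. Ccr6, found on B cells and on T cells that make interleukin 17, read 7.12, 6.71, 6.11 and 6.62 (-0.55 ± 0.23). Cxcr6, a receptor of memory T cells and NKT cells, was also lower without overlap at -0.48 ± 0.19. Cxcr3, the receptor of effector T cells for the interferon-induced ligands, read 7.38, 7.64, 7.23 and 7.51, with the prefixes interleaved and a difference of -0.14 ± 0.16. Ccr10, which guides lymphocytes to skin and mucosa, differed by -0.10 ± 0.18. On the other side, Ccr8 read 4.23, 4.29, 4.77 and 4.55 (0.40 ± 0.13), and Ccr4, a receptor of regulatory and helper T cells, differed by 0.18 ± 0.15, reading 4.30 in nm7 and 4.65 to 4.66 in the other samples. Both of these were dim.

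The 7 myeloid receptors had a median difference of -0.15 and SDs of 0.12 to 0.42. Ccr2, the receptor that brings monocytes out of bone marrow, read 5.66, 5.94, 5.19 and 5.44, lower in both skm samples by 0.49 (-0.49 ± 0.16; limma, adjusted p = 0.16). Of its other probe sets, one differed by -0.45 and the other by 0.26, both with means near the TrpnX level. Cx3cr1, a receptor of patrolling monocytes and macrophages, read 6.89, 7.0, 6.48 and 7.11, so skm4 was low and skm5 was not. Ccr1l1, a relative of Ccr1 of little known function, was higher in skm without overlap at 0.42 ± 0.14, and Cxcr2, the neutrophil receptor, at 0.18 ± 0.12. Ccr1, Ccr3 and Xcr1, the last a receptor of cross-presenting dendritic cells, overlapped between the prefixes. Ccrl2, an atypical receptor that presents chemerin rather than signalling, read 7.5, 7.53, 8.01 and 7.61, highest in skm4.

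**Figure D1:**
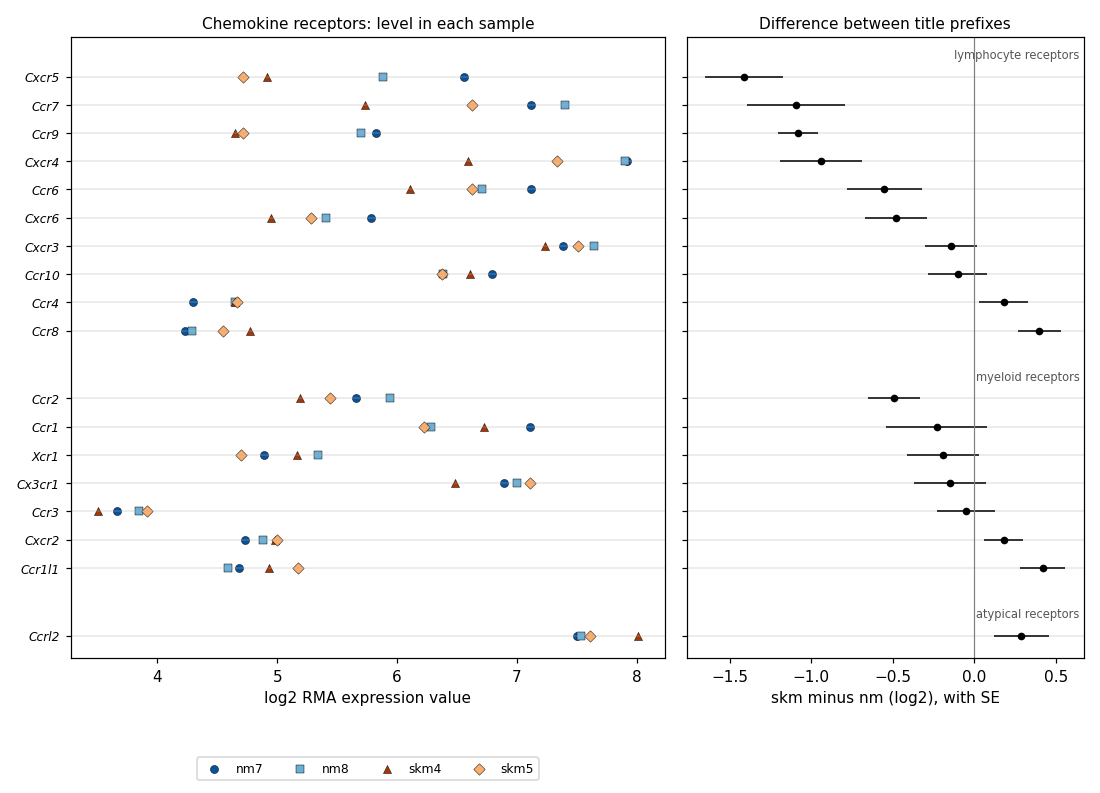
Left, the log2 RMA value of each of the 18 chemokine receptor genes in nm7, nm8, skm4 and skm5 (1 point per sample); right, the skm minus nm difference with its standard error from limma (n = 2 per prefix). Cxcr5, Ccr7, Ccr9 and Cxcr4 lie at -1.41 to -0.94, and skm4 is the lowest sample for 9 receptors.

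Among the ligands, the homeostatic Cxcl12, Cxcl13 and Ccl25 pair with receptors described above. Cxcl12, made by stromal and perivascular cells, read 10.49, 10.69, 10.10 and 10.33, lower in skm by less than its receptor (-0.38 ± 0.15 against -0.94 ± 0.25 for Cxcr4; the difference between the genes was not tested). Its other probe set, less bright, differed by 0.12 ± 0.15, so the sign depended on the probe set. Ccl25, the ligand of Ccr9 made in thymus and gut, read 7.90, 7.93, 7.70 and 7.64, a small difference without overlap (-0.24 ± 0.12; limma, adjusted p = 0.28).

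Cxcl13, the ligand of Cxcr5 made by follicular stroma, depended on the probe set in size. The brighter probe set read 7.44, 7.80, 7.04 and 7.81, with skm4 low and skm5 as high as nm8 (-0.19 ± 0.28, but 0.19 without skm4, -0.01 without nm8, -0.38 without nm7 and -0.58 without skm5). The other read 7.88, 7.71, 5.56 and 7.13, with both skm samples below both nm samples and skm4 by far the lowest (-1.45 ± 0.48). Both agreed in ranking skm4 last. In all, 14 members had several probe sets. In 7 of them (Ccr1, Ccr2, Ccr9, Cx3cl1, Cxcl11, Cxcl12 and Cxcl16) the probe sets differed in sign, and in 5 (Ccr1, Ccr2, Ccr9, Cxcl13 and Cxcl16) they lay more than 0.5 apart.

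**Figure D2:**
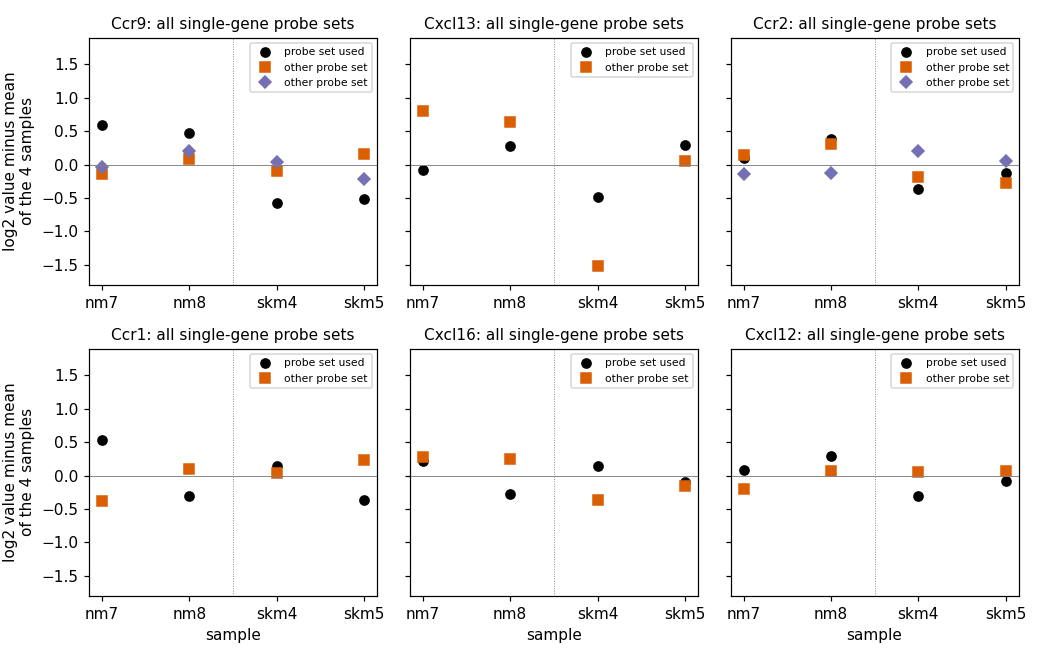
The log2 value of every single-gene probe set of 6 chemokine genes in each sample, minus that probe set's mean over the 4 samples; black points are the probe set used for the gene. In Ccr9 only the probe set used is low in skm4 and skm5, and in Cxcl13 the other probe set is lowest in skm4, where it read 5.56.

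The 9 homeostatic ligands other than Cxcl12 and Cxcl13, Ccl25 included, had a median difference of 0.06. Ccl22, a ligand of Ccr4 made by dendritic cells and macrophages, read 6.55, 6.63, 5.77 and 5.92. The pairs were tight and apart, a difference of -0.75 ± 0.13 or 1.68-fold (limma, adjusted p = 0.063). Ccl17, the other ligand of Ccr4, read 6.02, 6.21, 6.29 and 5.86 with the prefixes interleaved. Cxcl14, a ligand of epithelium and fibroblasts, read 8.57, 8.54, 8.81 and 8.83, and Cxcl17, a mucosal ligand, was higher in skm at 0.38 ± 0.14. Ccl27a, a skin ligand of Ccr10, ranged from 6.63 in nm7 to 7.93 in skm4, with 7.52 in nm8 and 7.0 in skm5, so it varied within each prefix. It was read by a probe set of the kind marked x. Keratinocyte markers had mean levels of 5.88, 6.37, 6.12 and 8.05, and their part in the Ccl27a values was not tested. Without skm4 the Ccl27a difference was -0.08 and without nm7 it was -0.06, against 0.84 without nm8, 0.86 without skm5 and 0.39 ± 0.41 in all samples.

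The interferon-induced ligands of Cxcr3 differed from each other. Cxcl9 read 6.87, 6.70, 6.03 and 5.95, lower in both skm samples by 0.80 (-0.80 ± 0.13, 1.74-fold; limma, adjusted p = 0.061). Cxcl10 read 5.61, 5.14, 5.54 and 5.39 (0.09 ± 0.19) and Cxcl11 5.26, 4.79, 5.21 and 4.90 (0.03 ± 0.20), each highest in nm7 and lowest in nm8. All 3 are known as genes induced by interferon gamma in many cell types.

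**Figure D3:**
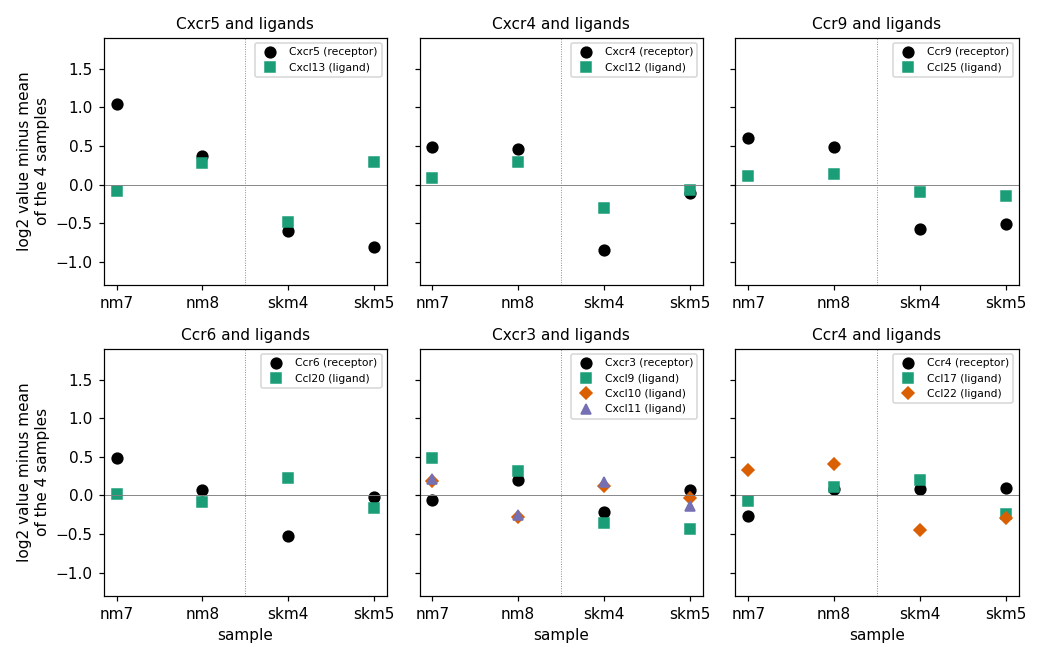
The log2 value of 6 chemokine receptors (black circles) and their ligands (coloured marks) in each sample, minus each gene's mean over the 4 samples. By the probe sets used, Cxcr4 and Cxcl12 are both low in skm4, while Cxcl9 and Ccl22 are low in both skm samples and Cxcl10, Cxcl11 and Ccl17 are not. The other Cxcl12 probe set, not drawn here, read 9.56 in skm4 and was lowest in nm7 at 9.31.

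The promoters of Cxcl9, Ccl22 and Ccl12 are shown because these genes, each with 1 probe set, were lower in skm at an adjusted p under 0.10. That of Cxcl10 is shown beside Cxcl9 as its fellow Cxcr3 ligand with no such difference. Each is the 250 bases before the annotated start, 5′ to 3′ on the gene's strand, from RefSeq on GRCm38.p6, a build used for these sequences and for gene order. They lie at chr5:92328080-92328329 on the minus strand for Cxcl9, chr8:94745434-94745683 on the plus strand for Ccl22, chr11:82101595-82101844 on the plus strand for Ccl12 and chr5:92348890-92349139 on the minus strand for Cxcl10. Capitals mark matches to any of 6 motifs, searched on both strands: a TATA box (TATAAA), the core of the interferon-stimulated response element, a gamma-activated site (TTCNNNGAA), an AP-1 site (TGANTCA), the clock E-box (CACGTG) and the NF-kappaB consensus.
Cxcl9: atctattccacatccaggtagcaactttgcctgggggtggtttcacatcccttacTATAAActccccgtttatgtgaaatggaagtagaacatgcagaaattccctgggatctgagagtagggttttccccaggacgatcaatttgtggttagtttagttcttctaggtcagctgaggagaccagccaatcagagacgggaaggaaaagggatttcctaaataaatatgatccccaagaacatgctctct
Ccl22: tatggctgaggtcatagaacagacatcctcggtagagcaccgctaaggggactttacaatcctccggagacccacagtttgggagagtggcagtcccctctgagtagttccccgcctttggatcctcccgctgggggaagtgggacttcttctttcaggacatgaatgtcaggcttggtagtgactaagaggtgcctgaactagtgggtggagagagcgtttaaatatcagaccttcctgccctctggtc
Ccl12: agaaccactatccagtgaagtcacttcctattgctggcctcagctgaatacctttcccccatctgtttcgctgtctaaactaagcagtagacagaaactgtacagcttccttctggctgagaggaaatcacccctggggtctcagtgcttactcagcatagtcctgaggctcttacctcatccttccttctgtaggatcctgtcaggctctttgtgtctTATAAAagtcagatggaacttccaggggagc
Cxcl10: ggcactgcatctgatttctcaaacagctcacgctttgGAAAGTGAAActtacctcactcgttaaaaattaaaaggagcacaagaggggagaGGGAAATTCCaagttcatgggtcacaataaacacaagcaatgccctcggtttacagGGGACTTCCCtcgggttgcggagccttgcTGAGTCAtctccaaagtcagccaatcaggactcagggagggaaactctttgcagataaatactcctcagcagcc

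The Cxcl10 promoter held 1 response element core beginning 213 bases before the start, 2 NF-kappaB matches beginning 159 and 103 bases before it and 1 AP-1 match 74 bases before it. The Cxcl9 window held 1 TATA match, 195 bases before the start, the Ccl12 window 1 TATA match, 31 bases before it, and the Ccl22 window 0 matches. None of the matches shown overlapped another. Over the 43 promoters of the 37 members in the table, the NF-kappaB consensus was in 8 (18.6%), against 3.9% of all 32851 promoters. The TATA box was in 25.6% of member promoters against 12.4%, the AP-1 site in 11.6% against 6.75%, the gamma-activated site in 9.3% against 7.02%, the response element core in 4.65% against 2.98% and the clock E-box in 2.33% against 6.02%. The members with an NF-kappaB match were Ccl20, Ccl9, Ccr3, Ccr6, Ccrl2, Cxcl1, Cxcl10 and Cxcl2. Of these 8, Ccl9 and Ccr6 were lower in skm without overlap and Ccrl2 was higher, where 28.6% and 25.8% of all genes were. In the rest the prefixes overlapped. A link between the matches and the differences was not tested. These matches describe letters in the windows only.

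Of the 14 inflammatory CC and XC ligands, 10 had a negative skm minus nm difference, 5 were lower without overlap and 2 higher, with a median of -0.24. The background is 28.6% of all genes lower and 25.8% higher, so the lower count is near it. Ccl5, made by activated T cells, NK cells and platelets, had the largest SD of all members, 0.87 over the 4 samples. It read 7.67 and 8.59 in nm7 and nm8 and 6.47 and 7.48 in skm4 and skm5, a difference of -1.16 ± 0.43 (2.23-fold; limma, adjusted p = 0.19) in which nm7 and skm5 lay close together. Without skm4 the difference was -0.65 and without nm8 it was -0.70. Ccl12, a mouse monocyte attractant and ligand of Ccr2, read 6.94, 6.90, 6.40 and 6.31 with tight pairs (-0.56 ± 0.12, adjusted p = 0.078). Ccl4, a ligand made by activated T cells, NK cells and macrophages, was lower without overlap at -0.47 ± 0.17, and so was Ccl7, which draws monocytes, with a difference of -0.29 ± 0.12.

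Ccl6 and Ccl9, related ligands of mouse myeloid cells, both had nm7 highest and skm4 lowest, with nm8 and skm5 in opposite order. Ccl6 read 9.24, 8.48, 7.87 and 8.83 (-0.51 ± 0.39), and the prefixes overlapped. Its difference was -0.03 without skm4, -0.13 without nm7, -0.90 without nm8 and -0.99 without skm5. Ccl9 read 8.46, 8.20, 7.57 and 8.04, lower in skm without overlap (-0.53 ± 0.20). Their other probe sets ranked skm4 last too. Ccl8, an attractant made by tissue macrophages, read 7.79, 7.51, 6.81 and 7.83, so skm4 stood below the other samples and skm5 was level with nm7. Its difference of -0.33 ± 0.34 was 0.17 without skm4, -0.19 without nm7 and -0.84 without skm5. The macrophage marker list had this order in part, with a centred median of -0.39 in skm4 against 0.10 to 0.21 in the others, and 7 of its 11 genes were lowest in skm4. The part of macrophage content in the Ccl6, Ccl8 and Ccl9 values was not tested.

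Ccl11, or eotaxin, the eosinophil attractant made by fibroblasts, was the member with the largest difference upward. It read 8.30, 7.48, 8.43 and 8.73, so nm8 stood low and nm7 was close to skm4 (0.69 ± 0.29; limma, adjusted p = 0.22). Its difference was 0.28 without nm8 and 1.1 without nm7, so its size rested on which nm sample was kept. Ccr3, its receptor, read 3.66, 3.85, 3.5 and 3.91, at the level of the TrpnX controls. Xcl1, a ligand of NK and T cells, was higher in skm at 0.35 ± 0.14. Ccl2, the main attractant of monocytes through Ccr2, read 5.79, 5.72, 5.43 and 5.72, with skm4 lowest (-0.18 ± 0.15). Ccl1, Ccl3, Ccl20 and Ccl24 overlapped between the prefixes, with differences of -0.20 to 0.28.

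The 4 neutrophil-attracting CXC ligands, Cxcl1, Cxcl2, Cxcl5 and Cxcl15, all overlapped between the prefixes. Their median difference was 0.01. Cxcl5 read 4.78 in nm7 and 3.66, 4.05 and 3.82 in nm8, skm4 and skm5, so 1 sample carried its range of 1.12. Its difference of -0.29 ± 0.36 was 0.27 without nm7, -0.85 without nm8 and -0.17 without skm5. Cxcl1 was also highest in nm7, at 6.19 against 5.72 to 5.89.

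**Figure D4:**
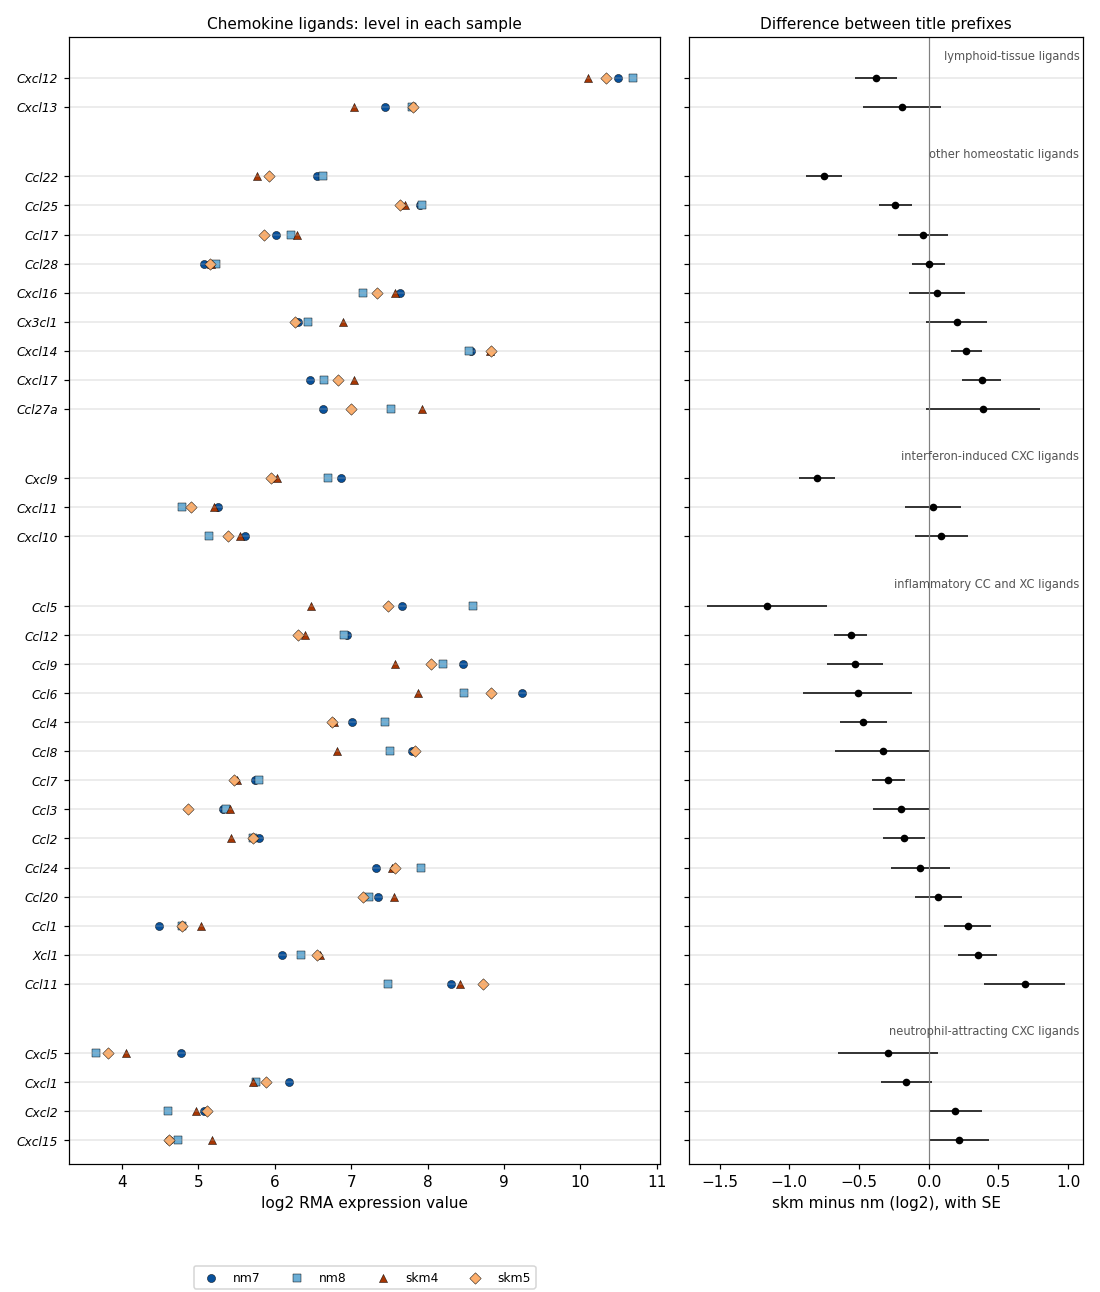
Left, the log2 RMA value of each of the 32 chemokine ligand genes in nm7, nm8, skm4 and skm5 (1 point per sample); right, the skm minus nm difference with its standard error from limma (n = 2 per prefix). Ccl5 has the largest difference downward at -1.16 and Ccl11 the largest upward at 0.69, and the neutrophil-attracting ligands at the bottom lie on both sides of 0.

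Chemokine genes are known to sit in clusters, and 25 of the members formed 6 runs of neighbouring protein-coding genes in the gene order of GRCm38.p6. In the run Ccl5, Ccl9, Ccl6, Ccl3 and Ccl4, all 5 differences were negative, at -1.16, -0.53, -0.51, -0.20 and -0.47. In the run Ccl2, Ccl7, Ccl11, Ccl12, Ccl8 and Ccl1 they went both ways, with Ccl11 at 0.69 between Ccl7 at -0.29 and Ccl12 at -0.56. Ccl22 at -0.75 sat beside Cx3cl1 at 0.20 and Ccl17 at -0.04, so direct neighbours differed. In the receptor run Cxcr6, Xcr1, Ccr1, Ccr1l1, Ccr3 and Ccr2, Cxcr6 and Ccr2 were lower without overlap and Ccr1l1 higher. Ligand and receptor pairs came from a list that did not hold every known pair, and 24 had both genes measured. Both genes were lower without overlap in 3 of these (Cxcl12 with Cxcr4, Ccl25 with Ccr9, Ccl7 with Ccr2). Both were higher in 0 and opposite in 1 (Ccl22 with Ccr4). Ccl12 with Ccr2, a pair outside the list, was also lower without overlap in both genes (-0.56 and -0.49). Other pairs outside the list are not given, so this pair does not add to the count. Of all single genes, 28.6% were lower and 25.8% higher without overlap, so some pairs with both genes lower would occur among any genes. The shares of pairs were not compared with other gene pairs, and the count of 3 is not read as a result. In the Cxcl12 and Ccl25 pairs, the other probe sets of Cxcl12 (0.12) and Ccr9 (0.06 and -0.16) did not show the difference. In the Ccr2 pairs, the other Ccr2 probe sets, both dim, went both ways (-0.45 and 0.26).

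Markers of lymphocytes were low in the same samples as the lymphocyte receptors. All 9 measured T cell markers were lower in skm without overlap, where 28.6% of all genes were, and their mean levels were 7.29 and 7.58 in nm7 and nm8 and 5.82 and 6.47 in skm4 and skm5. Of 7 B cell markers, 5 were lower without overlap, with mean levels of 7.08, 6.90, 5.67 and 6.20. NK cell markers had 5 of 5 lower without overlap, with mean levels of 5.72, 5.99, 5.11 and 5.02. The lymphocyte receptors had mean levels of 6.30, 6.20, 5.62 and 5.84. The size varied within the lists: Cd4 differed by -0.11 ± 0.12, Blk by -0.01 ± 0.11 and the NK cell marker Ncr1, which was dim, by -0.17 ± 0.12. Cd3g differed by -2.49 ± 0.32, Cd79b by -1.70 ± 0.25 and the NK cell marker Klrd1 by -1.61 ± 0.22 (limma, adjusted p = 0.051, 0.056 and 0.051). None of the T cell, B cell or NK cell genes passed the adjusted threshold of 0.05. Neutrophil markers (6 measured) had a median difference of -0.05, and dendritic cell markers (5) of -0.24. The medians were -0.56 for adipocytes, -0.31 for lymphatic endothelium, -0.34 for lymph node stroma, -0.12 for fibroblasts, 0.19 for blood endothelium, 0.25 for mast cells and 0.69 for keratinocytes. In the mast cell and blood endothelium lists the largest differences upward were Tpsab1, a mast cell tryptase, at 1.33 ± 0.12 and Pecam1, an endothelial adhesion molecule, at 1.31 ± 0.16 (limma, adjusted p = 0.051 for both). Both lists went both ways, with 2 of 7 mast cell and 3 of 6 blood endothelium genes negative. The largest differences downward were Kit at -0.29 ± 0.23 and Kdr at -0.58 ± 0.12 (limma, adjusted p = 0.52 and 0.078). The part of lymphocyte content in the receptor values was not tested.

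**Figure D5:**
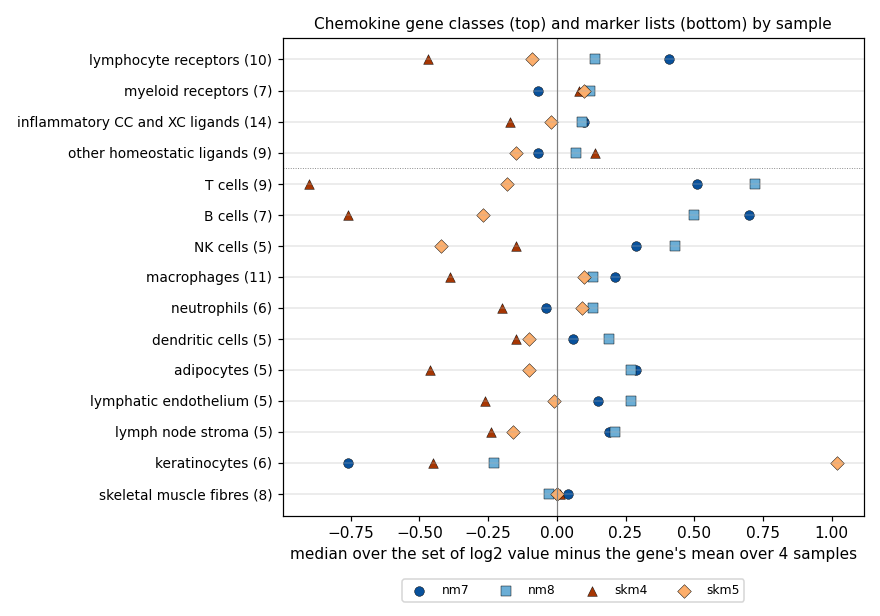
For 4 classes of chemokine genes (above the dotted line) and 11 marker lists (below it), the median over the genes of the log2 value minus the gene's mean over the 4 samples, 1 point per sample; the number of genes is in brackets. Lymphocyte receptors lie at -0.47 in skm4 and 0.41 in nm7, and the T cell, B cell and macrophage lists are also lowest in skm4. So are the neutrophil, dendritic cell, adipocyte, lymphatic endothelium and lymph node stroma lists. The NK cell list is lowest in skm5, at -0.42 against -0.15 in skm4.

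Genes that act around the chemokine system were listed by function. Of 21 measured genes of receptor signalling, 12 were lower without overlap, 2 higher and 0 passed the adjusted threshold, with a median of -0.16. Of all genes, 28.6% were lower without overlap and 25.8% higher, which is the background for this list and the next. The 4 largest differences were in Coro1a, an actin regulator of leukocytes, at -1.75 ± 0.49, Prkcb, a protein kinase C, at -1.29 ± 0.19 (limma, adjusted p = 0.056), Dock2, which activates Rac downstream of the receptors, at -0.85 ± 0.20, and Rgs2, which limits G protein signals, at -0.84 ± 0.23. The G protein subunits Gnai3, Gnai2 and Gnb1 differed by -0.59 ± 0.15, -0.16 ± 0.20 and -0.05 ± 0.12. Of 12 genes that induce lymphoid tissue, 8 were lower without overlap and 1, Tnfrsf11a, was higher, with the lymphoid cytokine Ltb at -2.07 ± 0.34 and Il7r, the interleukin 7 receptor, at -1.66 ± 0.51, while Il7 itself differed by -0.16 ± 0.17.

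Homing molecules went both ways, with 6 of 16 lower without overlap and 4 higher, near the 28.6% and 25.8% of all genes. Glycam1, a mucin of lymph node venules, differed by -3.73 ± 0.98 and Itgb2, the beta chain of leukocyte integrins, by -1.09 ± 0.22. Selplg, Itgb7 and Vcam1 were also lower, at -0.81 ± 0.21, -0.73 ± 0.16 and -0.62 ± 0.13. The largest differences upward were smaller: Itgam, a myeloid integrin chain, at 0.55 ± 0.22 and Chst4, a sulphotransferase of lymph node venules, at 0.47 ± 0.12. At a limma adjusted p under 0.10, 3 genes of the list were lower and 0 higher (4.69% and 3.34% of all genes). Among chemokine relatives outside the naming rule, Ppbp, a platelet chemokine that attracts neutrophils, read 5.83, 5.6, 4.91 and 4.87 (-0.83 ± 0.13; limma, adjusted p = 0.061). Pf4, the other platelet chemokine, read 9.63, 9.84, 9.53 and 9.82 with no such split. Ackr1, the atypical receptor of venules and red cells, was higher in skm at 0.39 ± 0.14, and Ackr3, a scavenger of Cxcl12, differed by 0.12 ± 0.19. Of 12 genes that cleave or present chemokines, Sdc4, a heparan sulphate proteoglycan, had the largest difference at -0.82 ± 0.11 (adjusted p = 0.051), and 5 of the 12 were lower without overlap and 1 higher (28.6% and 25.8% of all genes). Dpp4 and Mmp2, which cleave Cxcl12, differed by -0.24 ± 0.18 and -0.05 ± 0.11.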

How the data were processed

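The authors deposited 1 log2 value for each probe set and array. RMA and Affymetrix Expression Console 1.1 are named in the submitters' processing notes. The sources used here do not say which arrays were normalized together. Of 22690 probe sets, 64 controls were left out. The platform annotation named 1 gene for 20380, which gave 12393 genes, and symbols were updated through Entrez identifiers (29 kept the older symbol). The probe set with the highest mean stood for a gene. The skm minus nm difference was fitted over all genes with limma 3.58.1 in R 4.3.3 (2-sided, 2 residual degrees of freedom plus 3.51 borrowed) and adjusted by Benjamini-Hochberg, with a threshold of 0.05; the script was tested on simulated data. Since the labels name no separate animals, p-values reflect only how these samples vary, possibly for technical reasons, and the number of arrays limits the precision. Members and lists were chosen with earlier results of these data known. The roles of members and the marker lists were assigned by hand. Members named with every sample's value were the 12 with the largest SD, those without overlap that differed by at least 0.8, and their ligands or receptors, with others added after their values were seen. Of other lists, up to 4 genes by size of difference were to be named. This was not kept throughout: some larger differences were left out, and some genes were added after their values were seen. Alternatives were other normalization, centring, filters, probe set choices, thresholds, an intensity trend and each sample left out.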

Additional observations from a re-analysis of the deposited data

Results flagged for a closer look

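Ccr4, a receptor of regulatory and helper T cells, had 1 sample far from the others. It read 4.30 in nm7 and 4.65 to 4.66 in nm8, skm4 and skm5, and the gap made up 0.97 of the whole range, past Dixon's limit for 4 samples. This was 1 of 50 members examined, and chance alone gives about 1 such gene in 20. The gene was dim in all samples.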

How the results depend on the processing

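Members past an adjusted p of 0.05 numbered 0 in the main fit, with median centring, with the filter, with the mean of probe sets, without probe sets of the x and s kinds, and 0 to 0 with each sample left out. They numbered 1 with quantile normalization and 1 with probe sets in place of genes (Ccr9 both times). An intensity trend gave 4 of the 50 (Ccl22, Ccr9, Cxcl9 and Cxcr5), where 1110 of 12393 genes passed. At a threshold of 0.10 there were 5, or 10% of the members against 8.03% of all genes. Over all genes, the main 4 calls became 186 with quantile normalization, 1026 with the filter, 92 with the mean of probe sets, 142 without x and s probe sets, 308 with probe sets, 1110 with the trend, 15 without skm5 and 0 without nm7, nm8 or skm4. The filter at the median level left 5 members, of which 4 had an SD above the median of the genes kept and 2 a range over 1. Of these 5, 2 were lower and 2 higher without overlap, where 28.6% and 25.8% of all genes were before the filter. These counts fell since fewer members remained. The median difference of -0.16 became -0.13 with median centring, -0.38 with the filter and -0.14 with the mean of probe sets. With each sample left out the median difference ran from -0.18 to -0.09, members with a range over 1 from 5 to 9 and members with an SD above the median from 37 to 40. Members lower without overlap ran from 20 to 25 and members higher from 13 to 16. With 1 sample fewer the prefixes separate more easily, so these 2 counts rise without any stronger difference. A range can only stay or shrink. The shares of all genes with a sample left out are not given, so these counts have no background. Of 21 named members, 13 kept their sign in every alternative run. Ccr9, at -1.08, was at 0.06 without x and s probe sets. No paired analysis was possible because the samples form 1 group and the numbers in their titles are not shared between the prefixes. Weak signal over background limits the dim members.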
